A study of Mus musculus with 27 samples.

Results

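Hepatocytes of C57BL/6J mice were compared with hepatocytes of 129S1/SvImJ mice, the inbred strains most often used as backgrounds of gene-targeted mice. These 6 samples, 3 per strain, were chosen by the strain in their labels from 27 samples of 9 inbred strains. All came from liver of female mice aged 12 weeks, with no treatment and no engineered allele named in the labels. The samples are labelled as biological replicates 1, 2 and 4 of C57BL/6J and 1, 2 and 3 of 129S1/SvImJ. The study set out to relate genetic differences between strains to epigenetic marks and gene expression in the same mice. Its reduced representation bisulfite sequencing is described here, in which MspI fragments rich in CpG dinucleotides are sequenced after bisulfite treatment.

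DNA methylation in mammals is found mainly on cytosines of CpG dinucleotides, where it is copied to the new strand after replication. CpG islands at gene starts are mostly free of it, while gene bodies, repeats and most other CpGs carry it, and stretches at intermediate levels often mark enhancers in a tissue. Inbred strains differ in sequence, and a base change can remove or create a CpG as well as change the methylation of CpGs nearby.

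The 6 files listed between 2905185 and 3072877 positions per sample, and 2308766 positions were listed in all 6, which is 60.4% of the 3819402 listed in at least 1. The files hold a percentage per position and no read count, and the number of reads behind a value, its depth, is unknown. Over the shared positions the mean methylation level was 37.3% ± 0.129 (SD, n = 3) in C57BL/6J and 37.7% ± 0.133 in 129S1/SvImJ. The difference of -0.445 points had a p of 0.1 in a two-sided exact permutation test, the smallest that 3 against 3 allows. Pearson's r over the 2308766 positions was 0.936 to 0.946 between C57BL/6J samples and 0.951 to 0.958 between 129S1/SvImJ samples. The C57BL/6J libraries resembled each other no more closely than they resembled the other strain: replicate 2 of C57BL/6J had an r of 0.943 and 0.946 with its own strain and 0.947 to 0.955 with 129S1/SvImJ. The C57BL/6J files also name the mitochondrial chromosome differently from all other files, so a difference in processing behind that naming and the strain difference cannot be told apart.

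Reference sequence at the strain differences is shown first, for 4 gene starts among the largest differences found, chosen because several CpGs just before the start were listed in all 6 files. Each line is the reference sequence of the 250 bases before the start, 5′ to 3′ on the gene's strand, from RefSeq on build GRCm38.p6, which is a C57BL/6J genome. Capitals mark the CpGs listed in all 6 files.
Gm51701, chr9:123924898-123925147, plus strand: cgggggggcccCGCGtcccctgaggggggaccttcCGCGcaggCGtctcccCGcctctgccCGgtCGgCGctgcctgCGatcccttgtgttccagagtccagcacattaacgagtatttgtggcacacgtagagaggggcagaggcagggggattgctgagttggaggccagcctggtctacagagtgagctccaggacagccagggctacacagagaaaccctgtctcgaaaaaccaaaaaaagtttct
Gm42365, chr4:155962494-155962743, plus strand: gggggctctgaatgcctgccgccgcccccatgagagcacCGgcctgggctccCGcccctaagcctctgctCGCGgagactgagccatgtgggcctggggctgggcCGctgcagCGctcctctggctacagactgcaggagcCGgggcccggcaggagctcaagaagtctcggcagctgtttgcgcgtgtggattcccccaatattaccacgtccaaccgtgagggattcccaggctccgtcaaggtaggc
Vmn2r29, chr7:7278290-7278539, minus strand: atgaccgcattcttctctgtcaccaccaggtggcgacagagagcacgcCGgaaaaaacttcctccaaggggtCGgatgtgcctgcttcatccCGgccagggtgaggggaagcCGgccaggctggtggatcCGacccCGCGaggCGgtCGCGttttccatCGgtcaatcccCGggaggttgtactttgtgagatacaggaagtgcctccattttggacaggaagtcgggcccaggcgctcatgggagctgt
Gm24463, chr9:89066970-89067219, plus strand: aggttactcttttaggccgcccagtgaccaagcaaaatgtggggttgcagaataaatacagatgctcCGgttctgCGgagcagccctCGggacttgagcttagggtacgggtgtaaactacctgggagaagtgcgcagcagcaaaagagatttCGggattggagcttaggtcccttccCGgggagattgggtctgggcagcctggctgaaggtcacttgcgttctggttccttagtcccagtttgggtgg

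These stretches hold 14, 16, 17 and 9 reference CpGs in the order printed, of which 10, 7, 12 and 5 were listed in all 6 files. The median over the 32851 promoters of the RefSeq table was 6 CpGs in 250 bases, and over all called starts it was 7. At Gm51701, a long noncoding RNA gene, the CpG that begins 185 bases before the start stood at 0% in all C57BL/6J samples and at 93.0% ± 1.39 (SD, n = 3) in 129S1/SvImJ. At Gm42365, also a long noncoding RNA gene, the CpG at -145 stood at 18.8% ± 5.79 and 77.4% ± 13.2. At Vmn2r29, of the vomeronasal receptor family, the CpG at -91 stood at 37.0% ± 1.55 and 73.3% ± 10.8. Gm24463, a further long noncoding RNA (lncRNA) gene, differed the other way, and its CpG at -97 stood at 80% ± 19.6 in C57BL/6J and 0.641% ± 1.11 in 129S1/SvImJ. In each of these stretches all listed CpGs differed in the same direction, though not by the same amount: at Vmn2r29 the CpG at -138 stood at 50% and 53.4%.

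The stretches at Gm51701, Vmn2r29 and Gm24463, but not that at Gm42365, held pairs of neighbouring positions that were listed in all 3 samples of 129S1/SvImJ and in none of C57BL/6J although the reference reads no CpG there. One pair from each is shown in capitals with the bases on each side, because these pairs place a strain difference in listing beside a difference in methylation level.
Gm51701, chr9:123924919-123924960, plus strand: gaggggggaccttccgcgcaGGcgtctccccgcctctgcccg
Vmn2r29, chr7:7278394-7278435, minus strand: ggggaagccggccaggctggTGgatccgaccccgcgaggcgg
Gm24463, chr9:89067123-89067164, plus strand: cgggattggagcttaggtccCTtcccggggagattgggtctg
In 129S1/SvImJ the pair shown stood at 74.0% ± 8.17 (SD, n = 3) beside Gm51701, at 49.4% ± 3.43 beside Vmn2r29 and at 0.641% ± 1.11 beside Gm24463. A second pair at Gm51701, at -205, stood at 78.7% ± 0.387. The listed CpG nearest to each pair shown stood at 67.2%, 66.8% and 1.28% in 129S1/SvImJ. The genome sequence to which the reads of each strain were aligned, beyond the GRCm38 build, was not given in the sources used here, and how it bears on such pairs was not tested. Whether the difference in listing had a part in the methylation difference was not tested either.

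Across the windows of the promoter table, 273485 positions were listed in all 6 files and 60 of these were not at a reference CpG. Of 3751 positions listed in all C57BL/6J samples and no 129S1/SvImJ sample, 8 were not at a reference CpG. Of 3722 listed the other way round, 1133 (30.4%) were not. This was not particular to 129S1/SvImJ. Of the positions listed in all 3 samples of a strain, 0.0466% were not at a reference CpG in C57BL/6J. In 129S1/SvImJ it was 0.458%, and in the other strains it was between 0.477% (A/J) and 1.53% (CAST/EiJ). The 1133 positions gave 366 neighbouring pairs, and the reference read TG at 132, CA at 105, CT at 43, AG at 40, GG at 22 and CC at 21 of them. TG and CA are what a CpG becomes when its methylated cytosine mutates to thymine. Genome-wide, 105892 positions were listed only in C57BL/6J and 87817 only in 129S1/SvImJ. Their mean levels were 69.6% and 67.6%, and 61.4% and 60.2% of them stood above 80%. Among shared positions 31.8% stood above 80% in C57BL/6J and 32.7% in 129S1/SvImJ, so positions listed in only 1 of these strains were more often highly methylated.

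To find where the strains differed in level, shared positions were averaged in tiles of 1 kb with at least 5 of them. There were 101614 such tiles, and 80061 had a mean over the 6 samples at least 2.5 points from both 0 and 100% and were tested. A tile was called when its adjusted p was under 0.05 in limma with Benjamini-Hochberg adjustment and the strain means were at least 25 percentage points apart. By that rule 256 tiles (0.320% of those tested) were called. Of these, 109 (0.136%) were higher in C57BL/6J and 147 (0.184%) were higher in 129S1/SvImJ. In all 256 the samples of the strains did not overlap, which the rule favours, beside 12586 (15.7%) of all tested tiles. The median difference of the called tiles was 41.2 points. Leaving out any 1 of the 6 samples brought the count to between 41 and 114. Since the samples did not overlap, no tile could change direction by this, and 251 to 255 of the 256 kept 25 points. By difference and separation of the samples alone, 607 tiles (0.758%) stood at least 25 points apart with no overlap, 247 (0.309%) higher in C57BL/6J and 360 (0.450%) higher in 129S1/SvImJ.

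Most called tiles were a contrast between an intermediate level and an extreme one. In 108 tiles the higher strain was over 80% and the lower between 20 and 80%, and in 82 the lower strain was under 20% and the higher between 20 and 80%. In 49 tiles both levels were intermediate. Only 17 tiles went from under 20% in 1 strain to over 80% in the other, 10 of them high in C57BL/6J and 7 high in 129S1/SvImJ. Within called tiles the single positions went together: 2853 of the 2986 shared positions (95.5%) lay in the direction of their tile, and 2213 (74.1%) did so by at least 25 points. In 181 of the 256 tiles every position went the same way. The rule, which selects on the tile mean, favours such agreement.

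The tile with the largest difference lay on chromosome 7 (chr7:63802001-63803000), in no annotated gene and 7780 bp from the pseudogene Gm7482. Its 5 positions averaged 95, 87.6 and 98.2% in the C57BL/6J samples and 1.33, 3.89 and 3.97% in the 129S1/SvImJ samples (adjusted p = 0.00261, limma). The tile that follows it, with 22 positions, stood at 93.9% ± 3.87 (SD, n = 3) in C57BL/6J and 24.1% ± 7.14 in 129S1/SvImJ. In the 2 kb before the first of these tiles 6 positions stood at 97.2% in C57BL/6J and 98.6% in 129S1/SvImJ.

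On chromosome 15 (chr15:31168001-31169000), away from annotated genes, 9 positions averaged 91.1, 91.9 and 86.5% in C57BL/6J and 3.99, 2.48 and 4.26% in 129S1/SvImJ (adjusted p = 5.9e-04). Neighbouring tiles in 4930519G04Rik, a protein-coding gene on chromosome 5, both stood high in C57BL/6J. The first (chr5:114878001-114879000) was at 88.0, 87.9 and 87.4% against 4.67, 6.38 and 5.56%, and the second at 86.5% ± 4.98 against 14.7% ± 2.51. A tile in the lncRNA gene D130009I18Rik (chr14:104715001-104716000) stood at 82.9, 91.1 and 89.3% against 7.53, 7.54 and 8.52%. In these tiles the SD of each strain was under 5 points.

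Several of the tiles higher in C57BL/6J lay in protein-coding genes. In Trhde, which encodes an enzyme that degrades thyrotropin-releasing hormone, 8 positions (chr10:114799001-114800000) averaged 77.5, 84.5 and 78.1% in C57BL/6J and 0, 5.73 and 3.75% in 129S1/SvImJ. The 180 shared positions in the next 2 kb stood at 6.18% and 2.14%, so in C57BL/6J a highly methylated stretch adjoined an unmethylated one and in 129S1/SvImJ both were low. In Rfx1, a winged-helix transcription factor gene, 5 positions (chr8:84075001-84076000) averaged 80, 80.6 and 96.0% against 0, 11.5 and 10.9%. In Samd4, which encodes an RNA-binding protein, 14 positions (chr14:47016001-47017000) averaged 86.9, 82.8 and 90% against 20.9, 23.7 and 16.7%. Dct, which encodes the melanin enzyme dopachrome tautomerase, had the widest spread among them: 5 positions (chr14:118043001-118044000) averaged 96.0, 100 and 88.3% in C57BL/6J and 6.67, 31.9 and 0% in 129S1/SvImJ (adjusted p = 0.0393). The remaining tiles of this group lay in Gm24463, at 80.1% ± 10.9 against 0.997% ± 0.126, and in the pseudogene Gm3786, at 96.3% ± 1.49 against 17.9% ± 10.4.

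In the other direction, the largest difference was in a cluster of transfer RNA genes on chromosome 1. At n-TGgcc4, a glycine tRNA gene, 8 positions (chr1:171044001-171045000) stood at 0% in all 3 C57BL/6J samples and at 96.2, 87.9 and 72.7% in 129S1/SvImJ (adjusted p = 0.00538). The next tile, with 16 positions, stood at 1.21% and 55.8%. Transfer RNA genes occur in near-identical copies, so the placement of these reads, and with it the value, is uncertain. In Pi4k2a, a phosphatidylinositol 4-kinase gene, 6 positions (chr19:42118001-42119000) averaged 6.75, 1.85 and 4.23% in C57BL/6J and 83.9, 90.3 and 79.8% in 129S1/SvImJ. In Pxn, which encodes the focal adhesion protein paxillin, 12 positions (chr5:115500001-115501000) averaged 3.96, 4.26 and 2.21% against 67.2, 75.7 and 80%. Pxn was also called in another tile, again higher in 129S1/SvImJ.

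The tile before Gm51701 (chr9:123924001-123925000) had the most positions of the 24 tiles named here, with 54. They averaged 7.12, 3.20 and 3.82% in C57BL/6J and 77.7, 81.4 and 80.5% in 129S1/SvImJ (adjusted p = 0.00172). In 50 of the 54 positions the samples of the strains did not overlap, in a tile selected for its difference in mean. The share of such positions over all shared positions is not given here. Beside these 54, the tile held 27 positions listed only in C57BL/6J and 18 listed only in 129S1/SvImJ, and the part of that difference in listing in the levels was not tested. The listed CpGs of the Gm51701 sequence printed above lie in this tile, and the next tile, within the gene, was called as well, at 20.1% ± 1.51 against 79.8% ± 2.12. A tile 488 bp from the lncRNA gene E130018N17Rik (chr2:168155001-168156000) stood at 0% in every C57BL/6J sample and at 75.7, 75 and 80% in 129S1/SvImJ. In Kcnk10, a potassium channel gene, the levels were 18.2% ± 3.34 and 83.3% ± 1.28 (SD, n = 3). In Rassf4, of the Ras association family, they were 22.5% ± 8.14 and 88.5% ± 6.50. In Cables1, which encodes a cyclin-dependent kinase partner, they were 19% ± 7.17 and 88.9% ± 8.94. The other 4 tiles of this group lay in no gene, on chromosomes 2, 6, 12 and 17, with differences of -63.7, -63.5, -72.1 and -78.2 points.

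**Figure D1:**
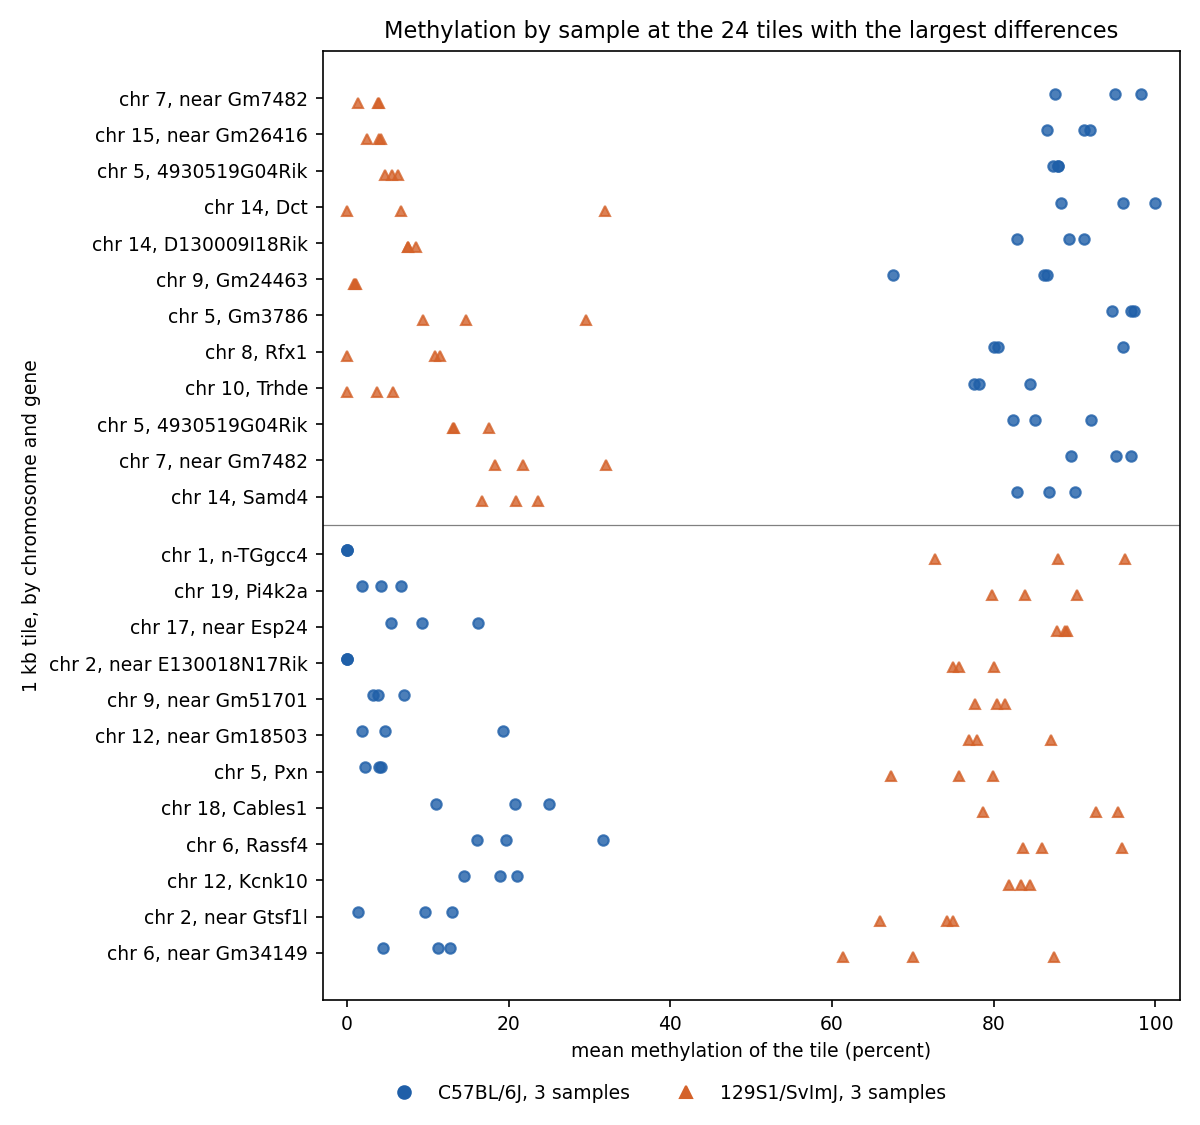
Mean methylation in percent (x axis) of the 24 called tiles with the largest differences, one row per tile with its chromosome and gene (y axis). Circles are the 3 C57BL/6J samples and triangles the 3 129S1/SvImJ samples; the 12 upper tiles are higher in C57BL/6J, the 12 lower ones in 129S1/SvImJ, and in each row the symbols of the strains are apart, as the choice of tiles required.

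Wnt5a was the gene with the most called tiles. It encodes a secreted signalling protein of the Wnt family that acts mostly outside the beta-catenin branch. In 3 adjacent tiles within the gene (chr14:28509001-28512000) the level was higher in 129S1/SvImJ. The first tile averaged 18.5, 24.6 and 15.6% in C57BL/6J and 49.5, 52.5 and 50.6% in 129S1/SvImJ. The second averaged 35.7, 28.2 and 23.4% against 75.4, 78.7 and 70.5%, and the third 11.8, 14 and 12.6% against 48.2, 44.8 and 45.1%. Of the 76 shared positions in the region, 55 did not overlap between the strains, in tiles selected for their difference in mean. In the 2 kb before the region 6 positions stood at 0.505% and 1.01%.

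A further run of 3 called tiles lay on chromosome 2 (chr2:163102001-163105000), in no gene, 12400 bp from Gtsf1l at its nearest end. Its tiles averaged 59.3, 8.04 and 61.9% in C57BL/6J and 89.9, 71.7 and 92.0% in 129S1/SvImJ. The middle tile thus formed a dip in C57BL/6J that was shallower in 129S1/SvImJ. In the 2 kb before the run, 7 positions stood at 10.3% and 8.18%.

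Zfp697, a zinc finger protein gene, was covered at many positions. Its tile chr3:98428001-98429000, with 98 positions, averaged 1.56, 1.18 and 1.35% in C57BL/6J and 32.9, 33.7 and 30.8% in 129S1/SvImJ (adjusted p = 0.00328). The tile before it, with 117 positions, stood at 2.20% ± 0.250 (SD, n = 3) and 26% ± 1.60, a difference just under the 25-point minimum. The tile after it stood at 53.8% ± 6.06 and 83.7% ± 2.70. Of the 221 positions in these 3 tiles, 192 stood under 5% in C57BL/6J, and 216 were higher in 129S1/SvImJ. BC029722, a protein-coding gene whose tiles also overlap Mmp24 and Eif6, had a similar contrast of absent against intermediate methylation: 26 positions within 500 bp of its start averaged 0.793, 0.302 and 0.790% in C57BL/6J and 34.0, 37.6 and 52.7% in 129S1/SvImJ. All 26 positions were apart between the strains, at a start selected for its difference in mean. The 2 positions in the 2 kb before the called tiles there and the 6 in the 2 kb after them stood between 87.0 and 92.5% in both strains.

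**Figure D2:**
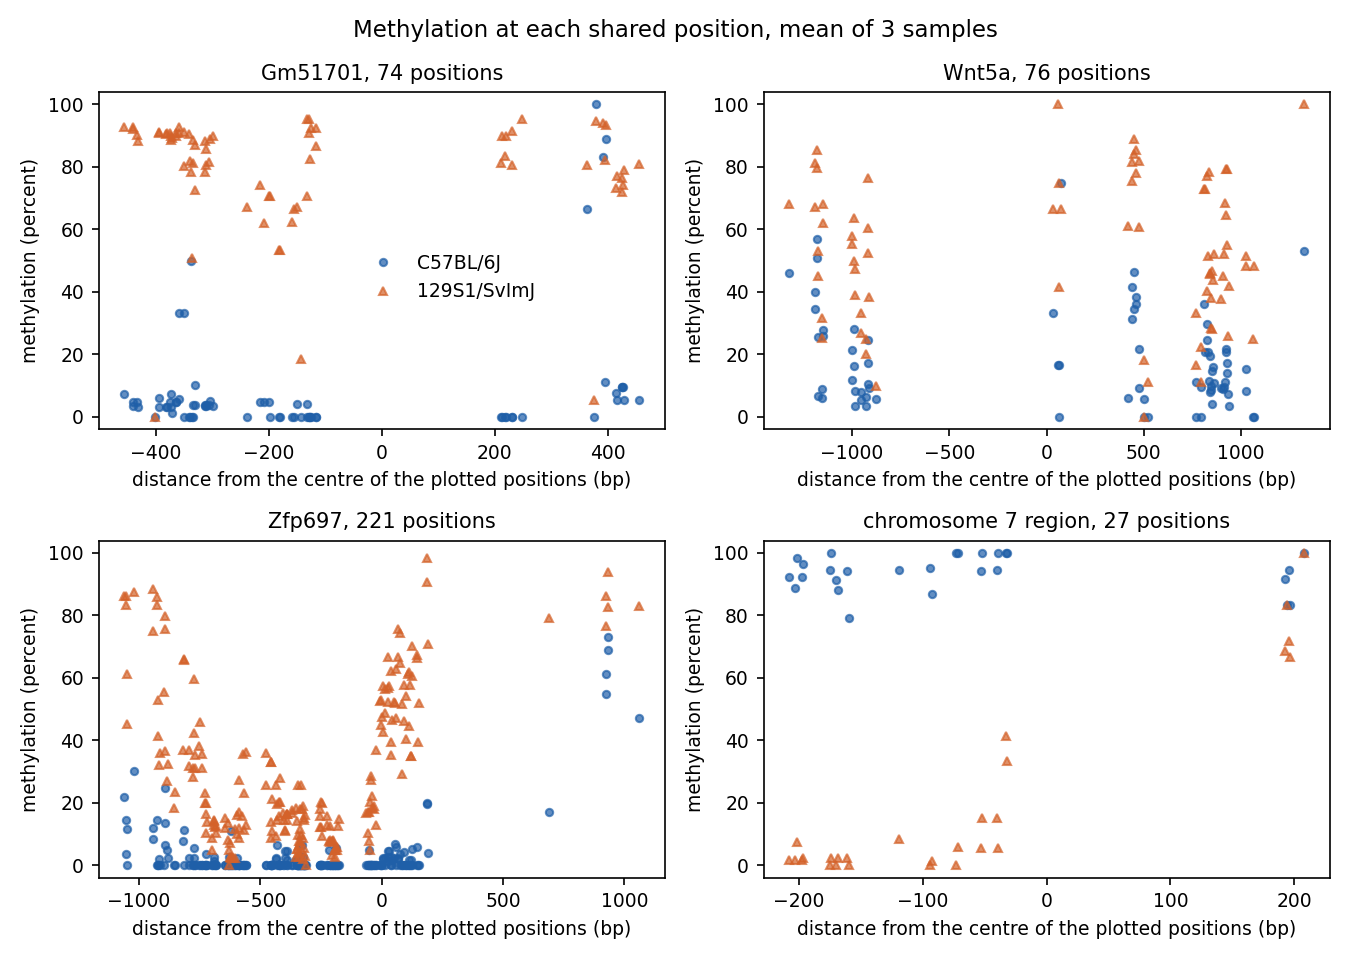
Methylation in percent (y axis) at each position listed in all 6 files, as the mean of 3 samples per strain, against the distance in bp from the centre of the plotted positions (x axis), for the regions at Gm51701, Wnt5a, Zfp697 and chromosome 7. Circles are C57BL/6J and triangles 129S1/SvImJ; the 74, 76 and 221 positions of the first 3 regions are mostly higher in 129S1/SvImJ and the 27 of the chromosome 7 region mostly higher in C57BL/6J.

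The genes with 2 called tiles each that were named by the fixed order were 2500002B13Rik, 4930519G04Rik, Afap1l1 and Anp32a. In the lncRNA gene 2500002B13Rik (chr8:57498001-57500000) the tiles stood at 3.99% ± 1.37 and 44.0% ± 1.15 in C57BL/6J and at 65.2% ± 6.17 and 88.2% ± 1.44 in 129S1/SvImJ. In Afap1l1, which encodes an actin filament-associated protein, adjacent tiles stood at 59.2% and 42.3% in C57BL/6J and at 29.6% and 9.70% in 129S1/SvImJ. In Anp32a, an acidic nuclear phosphoprotein gene, nearby tiles stood at 43.5% and 57.6% against 9.67% and 25.8%. In each of these genes both tiles went the same way. In 4930519G04Rik the 10 positions of its tiles lay in a single stretch, from 114878847 to 114879197, that a tile border cut. Of the 15 genes with at least 2 called tiles, Meox1 was the only one with a tile in each direction.

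Gene starts were tested as the mean of at least 5 shared positions within 500 bp. Such a mean could be had for 15776 starts, whose median level was 0.715%, and 4253 of them had a mean that allowed the test. Of these, 31 (0.729%) were called, 15 higher in C57BL/6J and 16 higher in 129S1/SvImJ. Leaving out any 1 of the 6 samples brought the count to between 8 and 18. The even split was lost without replicate 1 of 129S1/SvImJ, with 1 and 7, and without its replicate 3, with 2 and 9. The 31 starts belong to 27 gene symbols, 12 and 15 in the same order, and 15 of the symbols are protein-coding. Of the starts higher in C57BL/6J, 3 belong to Gm24463 and rest on overlapping positions: the one printed above averaged 86.1, 76.3 and 50.2% against 0.758, 0.595 and 0.641% (adjusted p = 0.0106). Beside its 12 shared positions, 25 were listed only in C57BL/6J and 2 only in 129S1/SvImJ. At Klhl33, of the kelch-like family, the samples averaged 57.6, 67.0 and 73.7% against 3.90, 3.66 and 5.78% (adjusted p = 0.00215). At Igsf23, of the immunoglobulin superfamily, the levels were 93.1% ± 4.72 (SD, n = 3) and 44.5% ± 6.43. At the lncRNA gene Gm33801 they were 60.5% ± 9.28 and 18.0% ± 10.3, and its adjusted p of 0.0479 was the closest of these to the threshold.

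Among starts higher in 129S1/SvImJ, Gm51701 had the largest difference, with 73 positions that averaged 10.5, 7.36 and 8.81% in C57BL/6J and 78.7, 80.7 and 79.5% in 129S1/SvImJ (adjusted p = 2.2e-04). At the lncRNA gene 6720473M11Rik the samples averaged 40.4, 29.0 and 39.2% against 88.6, 84.0 and 86.5%. At Gm16252, another lncRNA gene, 5 positions averaged 49.0, 45.7 and 51.3% against 90.8, 96.7 and 97.8%. At Vmn2r29, 50 positions averaged 33.8, 28.3 and 29.8% against 75.8, 72.5 and 72.5%. Vomeronasal receptor genes form a large family of similar copies, so the placement of reads at this start is uncertain. Here 12 positions were listed only in C57BL/6J and 9 only in 129S1/SvImJ. Gm42365 stood at 31.6% ± 2.76 and 72.9% ± 5.65.

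Some of the other called starts are of protein-coding genes outside the naming rule, chosen after their values were seen. At Ndufc2, which encodes a subunit of mitochondrial complex I, 21 positions averaged 0.366, 1.32 and 2.24% in C57BL/6J and 28.0, 37.9 and 29.4% in 129S1/SvImJ. At Tlr12, a Toll-like receptor gene, the levels were 3.15% ± 3.45 and 32.1% ± 11.7. Higher in C57BL/6J were Epsti1, at 82.1% ± 3.60 against 41.0% ± 12.2, Rin2, at 53.0% ± 3.81 against 12.1% ± 7.03, and Ddr1, a collagen receptor, whose start with the smaller difference stood at 40.9% ± 5.74 against 15.2% ± 2.90.

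Gene lists of liver function were set beside these calls, over starts measured and tiles within the genes. Sult2b1, a sulfotransferase that acts on cholesterol, was the only called start of 8 tested among conjugation enzymes, beside 0.729% over all tested starts, and held 1 called tile of 45 tested in them. Its samples averaged 58.6, 46.5 and 56.8% in C57BL/6J and 84.7, 84.9 and 86.9% in 129S1/SvImJ. Among ABC and organic anion transporters, 1 of 268 tested tiles was called, close to the 0.320% over all tiles. It lay in Abcc4, an efflux pump, at 90.8% ± 1.58 against 64.7% ± 7.52. No start or tile was called in the lists of hepatocyte transcription factors, nuclear receptors, glucose and glycogen metabolism, apolipoproteins, circadian clock genes, serpins or cytochrome P450 genes. In the same order, those lists had 4, 5, 6, 3, 0, 2 and 8 genes with a tested start, so no start of a circadian clock gene could be called. They had 77, 197, 91, 6, 58, 22 and 99 tested tiles. At the shares called over all starts and all tiles, few or none would be called in lists of that size.

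Zinc finger genes held 6 called tiles of 824 tested, beside 0.320% over all tiles, and 5 of the 6 were higher in 129S1/SvImJ. The median difference over their tested starts was 0.136 points, beside -0.220 over all tested starts. At Zfp772 the tile and the start held the same 6 positions, which averaged 0, 0.794 and 2.78% in C57BL/6J and 40.5, 37.0 and 43.2% in 129S1/SvImJ (adjusted p = 0.00215 for the start). At Zfp710 the levels were 14.2% ± 5.49 and 73.3% ± 11.5, and at Zbtb48, which encodes a telomere-binding protein, 26.9% ± 3.28 and 71.0% ± 3.06. Zfp697, described above, gave the remaining 2 tiles of that direction. Zfp809, a repressor of retroviral elements in embryonic cells, went the other way, at 30.8% ± 2.39 against 4.15% ± 4.29. Many zinc finger genes occur in similar copies, and the placement of reads among such copies is uncertain. Which of the genes named here this concerns was not tested. In Meis2, a homeobox gene, 1 of 474 tested tiles of developmental homeobox, Pax and Sox genes was called, at 75.7% ± 3.74 against 36.6% ± 7.49. No tile was called among 150 of imprinted genes, 132 of Hox genes, 79 of clustered protocadherins, 286 of other cadherins, 117 of DNA methylation and chromatin enzymes, 123 of growth hormone and insulin signalling or 143 of Wnt and zonation genes, a list of which Wnt5a is not a member. Nor was any called among 45 tiles of genes known to differ between strains, 53 of genes often targeted in mice, 20 of MHC genes and 41 of olfactory receptors.

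Markers of the cell type were covered only in part. Starts of the hepatocyte genes Apob, Ass1, Hnf4a and Fgb stood between 0.402 and 11.6% in both strains. Of the endothelial markers, Eng stood at 74.8% and 80.8% and Tie1 at 92.0% and 97.1%, while Kdr was at 1.69% and 1.18%. The cholangiocyte marker Spp1 stood at 78.5% ± 8.06 (SD, n = 3) in C57BL/6J and 91.1% ± 3.67 in 129S1/SvImJ, and Epcam at 54.9% ± 4.42 and 43.3% ± 3.23. Krt7, also of cholangiocytes, stood at 19.2% and 20.9%, and Cftr at 0.969% and 1.08%. The stellate cell starts were low: Des stood at 13.7% and 14.7%, Lrat at 2.49% and 2.06%, Col1a2 at 1.59% and 1.40% and Reln at 0.437% and 0.590%. No start of a leukocyte marker was measured. None of these starts was called. Those of Ass1, Kdr, Col1a2, Lrat, Reln and Cftr had a mean under 2.5%, so they were not tested and could not be called. In the stellate cell marker Pdgfrb, the receptor of platelet-derived growth factor, 1 tile was called of 30 tested in genes of that list, beside 0.320% over all tiles, at 41.4% ± 4.85 against 12.5% ± 3.81. A part of other cell types in the differences was not tested.

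Called tiles were spread over 19 autosomes and the X chromosome, but not evenly. Chromosome 14 had the highest share among these, 21 of 2643 tested tiles (0.795%), of which 13 were higher in C57BL/6J. Chromosome 1 had 15 called tiles, 12 of them higher in 129S1/SvImJ. The lowest shares were those of chromosome 10, with 6 of 4251 tiles (0.141%), chromosome 19, with 3 of 2434 (0.123%), and the X chromosome, with 1 of 2799 (0.0357%). The same chromosomes were near the ends of the range of positions listed in only 1 strain: 12.5% on chromosome 14, 3.99% on chromosome 10 and 3.74% on X. On chromosome 19 it was 5.65%. The tested tiles also included 18 on the Y chromosome, of which 0 were called and 2 were among the 607 that stood 25 points apart without overlap. The mice were female, so the placement of reads on Y is uncertain.

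**Figure D3:**
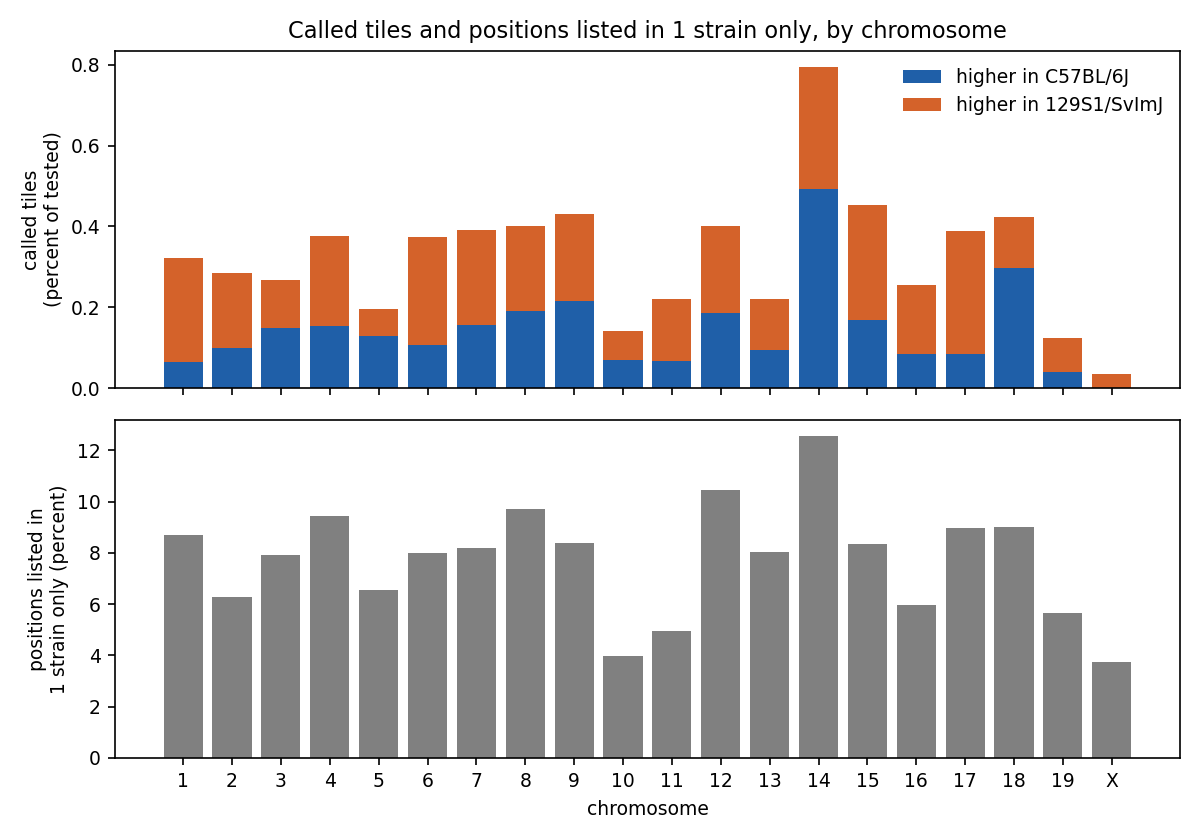
Called tiles as a percent of the tested tiles of each chromosome (upper panel, stacked by direction) and positions listed in only 1 of the strains as a percent of the chromosome's positions (lower panel), for the autosomes and X (x axis). Chromosome 14 has the tallest bar in both panels, at 0.795% and 12.5%.

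Along the chromosomes, called tiles lay close together at short range and shared their direction there. Of 106 tested tiles adjacent to a called tile, counted once per called neighbour, 32 (30.2%) were called, against 0.320% over all. The shares at longer distances were counted in the same way. At over 1 kb to 10 kb the share was 3.24%, at over 10 kb to 100 kb 0.911% and at over 100 kb to 1 Mb 0.520%. All 16 adjacent pairs of called tiles had the same direction, as did 5 of 6 pairs up to 10 kb, 8 of 14 up to 100 kb and 34 of 63 up to 1 Mb. Some adjacent pairs were a single short stretch of positions cut by a tile border. The 26 positions at BC029722 lay from 155818921 to 155819046 and the 24 at n-TGgcc4 from 171044747 to 171045194. Such pairs add little beyond the agreement of positions within a tile. Sharing of direction was thus seen within 10 kb, in 21 of 22 pairs, of which 16 were adjacent tiles. Beyond 10 kb the pairs were about evenly split. With gaps of up to 10 kb, the 256 tiles formed 237 runs of like direction, and 220 of these were single tiles. The 17 longer runs held 36 tiles, and 2 runs, those at Wnt5a and on chromosome 2, had 3 tiles. For the 607 tiles that were 25 points apart without overlap 25% of adjacent tiles belonged to the set, and 28 of 28 adjacent pairs had the same direction. Further apart, 14 of 17 pairs up to 10 kb, 19 of 51 up to 100 kb and 156 of 297 up to 1 Mb did.

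Of 1999 windows of 1 Mb with at least 10 tested tiles, 1808 had no called tile, 153 had 1 and 38 had 2 or more. The 3 windows with the most had 4 each, of 51, 86 and 138 tested tiles in the order that follows. On chromosome 1 (chr1:171000001-172000000) these were the pair at n-TGgcc4, a tile at the neighbouring tRNA genes and one in Usf1, a transcription factor gene of carbohydrate and lipid metabolism. The Usf1 tile stood at 0% in all C57BL/6J samples and at 43.3, 60 and 45% in 129S1/SvImJ. On chromosome 2 (chr2:163000001-164000000) the run of 3 was joined by a tile in Ttpal, a tocopherol transfer protein-like gene, which was higher in C57BL/6J, at 91.3% ± 4.39 against 45.8% ± 4.15. On chromosome 15 (chr15:99000001-100000000) a tile in Smarcd1, a chromatin remodelling subunit, stood at 37.9% ± 3.92 against 9.73% ± 3.44. Lima1, which encodes an actin-binding protein, had 2 tiles there, at 22.4% ± 9.84 against 83.3% ± 3.10 and at 54.2% ± 3.61 against 79.9% ± 1.20. The fourth lay in Fam186a, at 4.64% ± 3.13 against 67.0% ± 9.10. Each of these 3 windows held 1 tile higher in C57BL/6J and 3 higher in 129S1/SvImJ. In the same order, 28.1, 10.1 and 5.26% of their positions were listed in only 1 strain. By share of tested tiles, some windows with 3 called tiles stood higher. Among them were chr14:28000001-29000000, which holds Wnt5a, with 3 of 15, and chr15:39000001-40000000, with 3 of 19.

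The share of called tiles moved with the share of positions listed in only 1 strain. The windows were put in 4 groups of about equal number by that share. In the group with the lowest share, at most 2.12%, 13 of 21382 tiles (0.0608%) were called. The next groups had 0.208% and 0.390%, and the group with the highest share had 0.765%, 109 of 14245. Over the 1999 windows Spearman's rank correlation between that share and the share of tiles 25 points apart without overlap was 0.218, a description over windows that share their libraries. By tile, 110 of 11033 tiles (0.997%) that held a position listed in only 1 strain were called, and 146 of 69028 (0.212%) without one. Tiles of the first kind could differ in mean level, so those with a mean of 20 to 80% were also set side by side: 98 of 2589 (3.79%) and 133 of 15627 (0.851%). That mean is over both strains, so a large difference can itself place a tile in this range, which held 231 of the 256 called tiles. The range therefore does not make the 2 kinds of tile alike in level. A sequence change in an MspI site or in a CpG changes which positions are listed, and its part in the measured levels was not tested.

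Long stretches held no tested tile 25 points apart without overlap. On chromosome 10 the stretch from chr10:71000001-92000000 had 1213 tested tiles and 1.41% of its positions listed in only 1 strain. On chromosome 8 the stretch chr8:113000001-130000000 had 1408 tested tiles and 4.44%. On X, chr X from 3000001 to 75000000 had 1256 tested tiles and 3.37%. Stretches on chromosomes 3, 4 and 1, with 1026, 842 and 759 tested tiles, had 7.35%, 7.87% and 6.36%. The median over windows was 5.88%. Of the 10 stretches with the most tested tiles, 7 lay below it, the other 4 of these at 3.40% on chromosome 16, 4.25% on chromosome 12, 5.52% on chromosome 8 and 5.72% on chromosome 19.

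**Figure D4:**
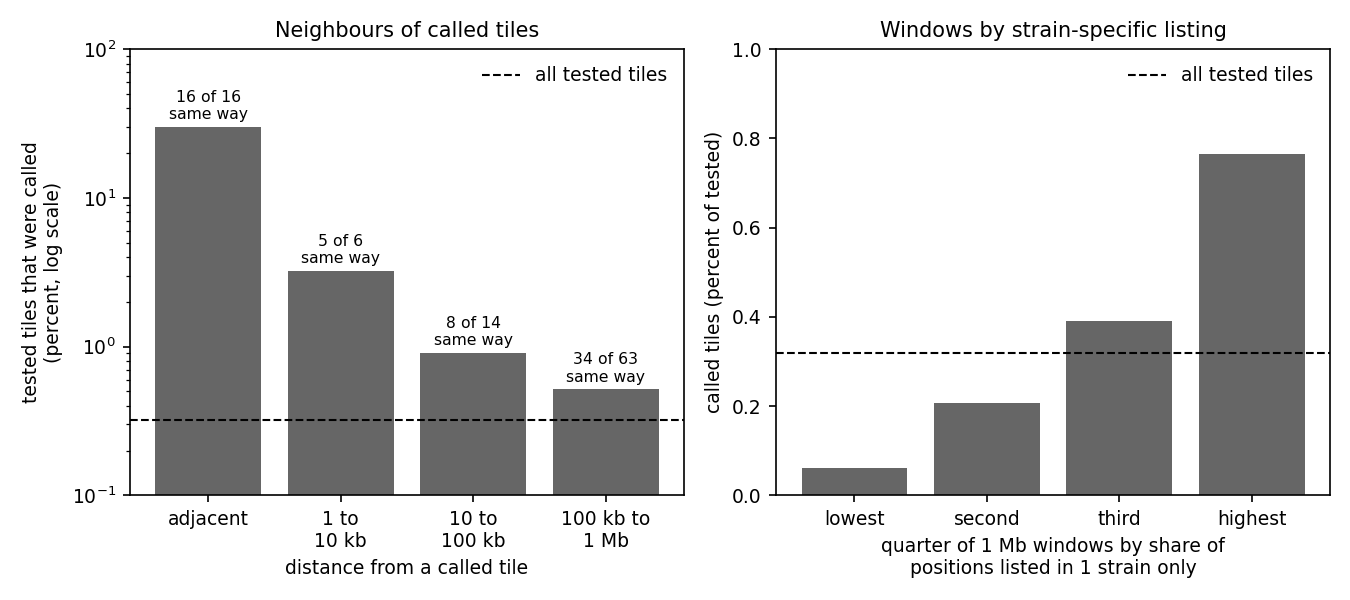
Left, percent of tested tiles that were called (y axis, log scale) by their distance from a called tile (x axis). A tile is counted once per called neighbour, and the number of called pairs of like direction is printed above each bar. Right, percent of tested tiles that were called (y axis) in 4 groups of the 1 Mb windows ordered by the share of positions listed in only 1 strain (x axis), rising from 0.0608 to 0.765%. The dashed line in each panel is the 0.320% over all tested tiles.

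With respect to genes, called tiles made up 0.312% of tested tiles in protein-coding genes (146 of 46744), 0.401% of those in other genes only and 0.310% of those in no gene. Of 2746 tested tiles that held the start of a protein-coding gene, 12 (0.437%) were called, and of 3870 tiles with such a start 1 to 1000 bp away, 7 (0.181%) were. That contrast was not kept for tiles 25 points apart without overlap, with 0.655% and 0.646%, beside 0.758% over all. Of 21627 protein-coding genes, 134 were overlapped by a called tile, 207 (0.957%) had one within 10 kb and 862 (3.99%) within 100 kb. Within 1 Mb the number was 4741 (21.9%), and the median distance from a gene to the nearest called tile was 3.99 Mb. Where a gene is targeted in cells of one strain and the mice are bred to another, sequence around the gene stays of the first strain. The distances give how often 1 of the 256 tiles called here lies within a given flank. They hold for the tested tiles and this rule only, and the number of called tiles changed with the settings.

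At single positions a smaller share was called than of tiles. Of 1072103 tested positions, 391 (0.0365%) were called, 252 higher in C57BL/6J and 139 higher in 129S1/SvImJ. In 266 of them the lower strain stood at 0% in all 3 samples, and 151 lay in a called tile. That lean to C57BL/6J was not kept when some libraries were left out. Without replicate 2 of C57BL/6J 106 positions were called higher in C57BL/6J and 164 in 129S1/SvImJ, without replicate 1 of C57BL/6J the numbers were 102 and 101, and without its replicate 4 they were 122 and 127. Without replicate 1 or 2 of 129S1/SvImJ limma called 0 positions. At an unadjusted p under 0.05 were 55690 of 1077940 and 54262 of 1068081 tested, near the share that this threshold gives without any difference. With all 6 samples that share was 5.46%. Without replicate 3 of 129S1/SvImJ the lean was kept, with 136 and 76, as it was with an offset of 1 in the log ratio (56 and 27) and with means of 10 to 90% only (104 and 35). Among positions 25 points apart before the test, 30486 were higher in C57BL/6J and 39826 in 129S1/SvImJ.

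The other 7 strains were used to see how the C57BL/6J and 129S1/SvImJ states are spread. At 146 called tiles with 5 positions in all 27 files and strain means still 25 points apart there, each strain was placed on the side of the midpoint on which its mean lay. In 8 tiles all 7 strains lay on the C57BL/6J side, so that 129S1/SvImJ stood alone, and in 11 tiles all lay on the 129S1/SvImJ side. In the other tiles the strains were split, most often with 2 of 7 on the C57BL/6J side (30 tiles). By strain, between 58 tiles (NOD/ShiLtJ) and 76 tiles (PWK/PhJ) of the 146 lay on the C57BL/6J side. No strain sided with either throughout.

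At single regions the same levels recurred in other strains. The chromosome 7 tile was high in A/J, at 88.1% ± 0.866 (SD, n = 3), while the 6 remaining strains lay at 0.889 to 5.04%. The chromosome 15 tile was low in PWK/PhJ, at 2.20% ± 0.136, and between 82.0 and 95.7% in the rest. The tile at n-TGgcc4 was high in DBA/2J, at 82.7% ± 14.8, and at 0.962% or lower in the others. The tile before Gm51701 was also high in DBA/2J, at 68.8% ± 12.4, and at most 11.9% in the others. At Wnt5a, WSB/EiJ was lower than C57BL/6J, at 9.32% ± 1.88 against 19.3% ± 1.97 on the positions in all 27 files, and A/J was higher than 129S1/SvImJ, at 73.7% ± 2.12 against 54.5% ± 2.01. At BC029722 the 129S1/SvImJ level of 41.4% ± 9.96 had no match: CAST/EiJ came next at 9.27% ± 3.20 and the other strains were at 1.08% or lower. The tile on chromosome 2 near Gtsf1l was likewise at 68.9% ± 5.15 in 129S1/SvImJ and at most 13.7% elsewhere. In Samd4 no strain reached the C57BL/6J level of 86.3% ± 4.16, and PWK/PhJ came next at 51.5% ± 4.23.

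**Figure D5:**
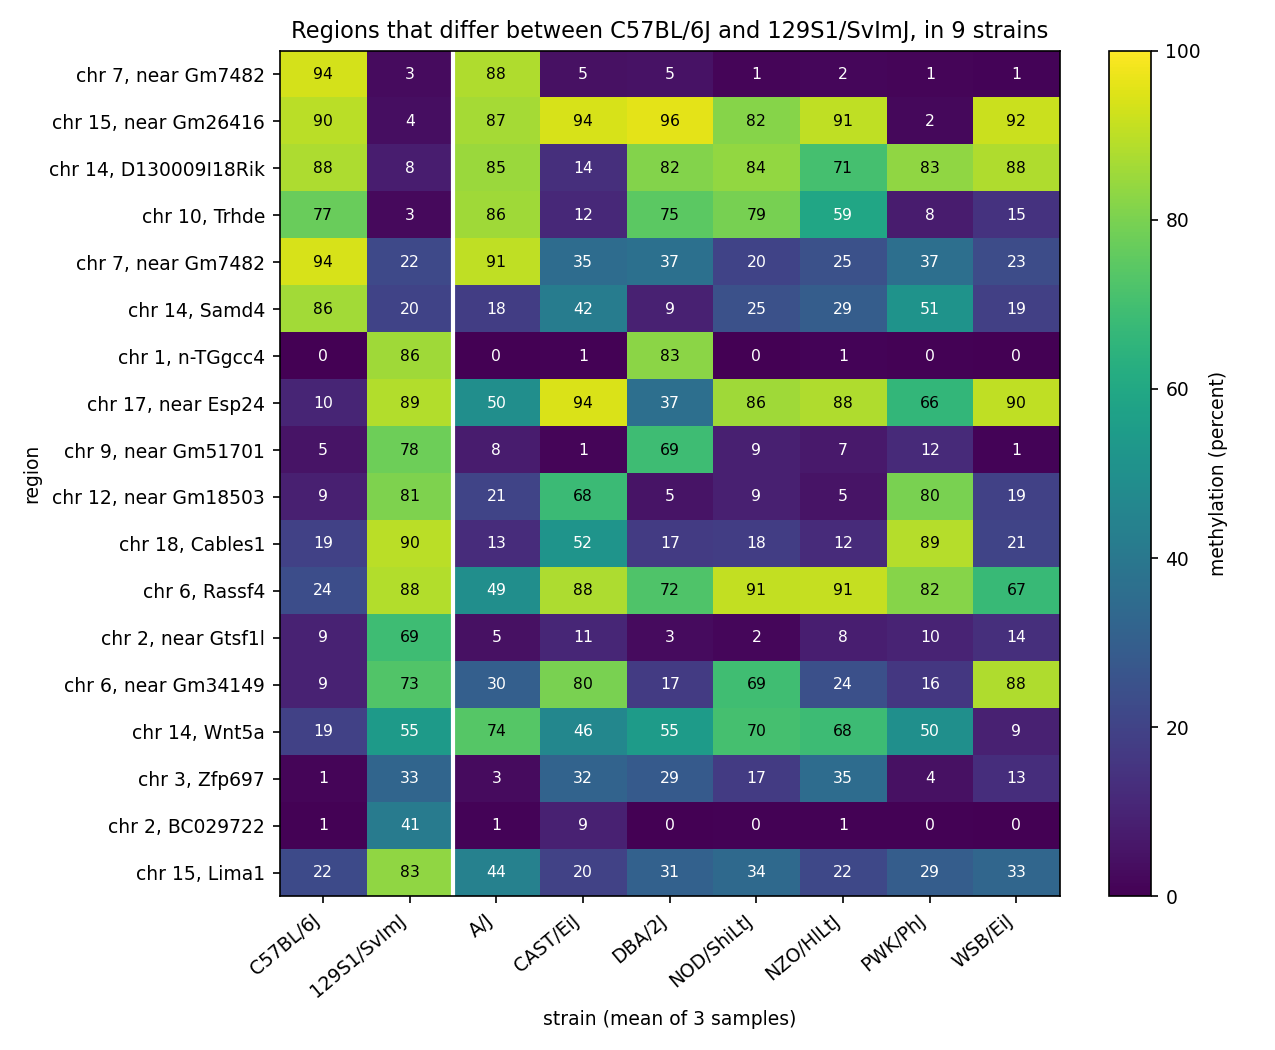
Methylation in percent, as colour and number, of 18 regions described above (y axis) in 9 strains (x axis), as the mean of 3 samples over positions listed in all 27 files. C57BL/6J and 129S1/SvImJ stand left of the white line; at n-TGgcc4 only DBA/2J shares the high 129S1/SvImJ level, and at BC029722 no other strain comes near its 41.4%.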

How the data were processed

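DNA methylation was measured by reduced representation bisulfite sequencing, with a commercial kit per the labels' protocols. The authors deposited, per the file headers, 1 list per sample of positions with a percent methylation and no coverage. The submitters' processing notes name GRCm38 (mm10), Trim Galore 0.6.3, Bowtie2 and Bismark 0.22; coverage filters and the handling of strain variants were not given in the sources used here. Of 273485 positions in the windows of the RefSeq promoter table of GRCm38.p6 listed in all 6 files, 273425 fell at its CpGs; that build was used for gene names. Both strands of a CpG were kept as separate positions.

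From these percentages, means of 1 kb tiles and of 500 bp on each side of gene starts were computed. Per tile, gene start or position, log2((percent + 5)/(100 - percent + 5)) was tested on the 6 samples with limma 3.58.1 in R 4.3.3, without covariates, adjusted over all features tested. Features with a mean outside 2.5 to 97.5% were left out. Other values were computed in Python 3.11.15 with numpy 2.4.6. The code was tested on simulated data.

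The members and lists were chosen with earlier results of these data known. The text names the 12 tiles and 6 gene starts with the largest differences in each direction, the 3 windows and the runs with the most called tiles, called members of the gene lists (1 is not reported here), and the 5 genes with the most called tiles in alphabetical order. The pattern for histone genes matched no symbol. The set of tiles 25 points apart without overlap was added after the data were seen.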

Additional observations from a re-analysis of the deposited data

How the results depend on the processing

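The 256 called tiles (109 higher in C57BL/6J, 147 in 129S1/SvImJ) numbered 98 (41 and 57) with an offset of 1 in place of 5 in the log ratio, 144 (58 and 86) without the filter on the mean, 161 (67 and 94) with at least 10 positions and 72 (37 and 35) with a minimum difference of 50 points. Fewer tiles were tested with at least 10 positions. Tiles that hold no position listed in only 1 of the strains gave 100 calls (42 and 58) among fewer tiles tested. Positions listed in all 27 files gave 180 calls (84 and 96) among 44027 tiles tested, in place of 80061. Leaving out 1 sample gave 41 to 114 called tiles, 20 to 52 higher in C57BL/6J and 21 to 62 in 129S1/SvImJ, 0 to 270 called positions in place of 391, and 8 to 18 called gene starts in place of 31. The 0 calls by limma came without 129S1/SvImJ replicate 1 or 2, with 55690 of 1077940 and 54262 of 1068081 tested positions at an unadjusted p under 0.05. Called positions numbered 83 with an offset of 1 and 139 with a mean of 10 to 90%, and called gene starts 18 with a window of 250 bp. The causes were not tested. With the replicate number as a block, limma called 0 tiles, 0 positions and 0 gene starts. At an unadjusted p under 0.05 were 6111 of 80061 tested tiles, 71292 of 1072103 positions and 394 of 4253 gene starts. The strains share only numbers 1 and 2, so 1 residual degree of freedom was left. Same-numbered samples did not deviate together (correlations of 0.00374 and 0.00721), so the numbers were not taken as pairs. In the fit on all 27 samples the block gave 297 called tiles. The share of pairs up to 10 kb apart with the same direction, 95.5%, was 100% of 5 pairs at a minimum of 50 points. No named tile or gene start reversed under any alternative run. Runs on the same means, and runs without 1 sample where the strains did not overlap, could not have reversed one. Of the alternative values, 80 of 462 for named tiles and 154 of 301 for gene starts no longer passed the threshold (56 of 438 and 123 of 270 without the replicate block). Of the 158 called tiles that could be tested on positions listed in all 27 files, 157 kept their direction. What depth limits could not be assessed, since the files give none.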

Other observations

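In a fit on all 27 samples and 45604 tiles, in which the spread is shared by all strains, C57BL/6J and 129S1/SvImJ differed in 305 called tiles, 139 higher in C57BL/6J and 166 higher in 129S1/SvImJ. Ordered from the lowest count, this was pair 9 of the 36 pairs of strains, which ranged from 252 to 1137 called tiles. The pair of C57BL/6J and DBA/2J gave 327. The pairs share samples, and the difference between their counts was not tested.

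Among genes with 2 called tiles beyond those described, Grik4, a glutamate receptor subunit gene, Opn4, which encodes melanopsin, and Pdlim3, a muscle PDZ and LIM protein gene, were higher in C57BL/6J in both. Gipc1, a PDZ adaptor gene, was higher in 129S1/SvImJ in both. They were chosen after their values were seen. The Grik4 tiles, adjacent on chromosome 9, stood at 85.7, 69.4 and 47.9% in the C57BL/6J samples and 5.56, 10 and 4.87% in 129S1/SvImJ in the first, and at 68.4, 56.0 and 57.9% against 17.1, 25.7 and 18.4% in the second.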
